A study of Mus musculus with 3 samples.

Results

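Antagonists of Wnt signaling were examined by name on microarrays of Fgfrl1-/- and wildtype mouse kidney rudiments. The members were Dkk1, Dkk2, Dkk3, Frzb, Sfrp1, Sfrp2, Wif1 and Kremen1, and all probes that the array files assign to these symbols were taken, control spots aside. This gave 8 genes of the 27745 gene names on the array, with 11 of its 41174 probes. The names were chosen with earlier results of these data known, and no measured value entered the rule. Dkk1 and Frzb had already been listed by the authors as lowered on these same arrays.

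The Wnt ligands are secreted proteins that bind Frizzled receptors together with the co-receptors Lrp5 and Lrp6 and thereby stabilize β-catenin, or act through other branches. Antagonists limit this signal outside the cell, either by occupying the co-receptors, as Dickkopf proteins do, or by binding the ligands, as Wif1 and the secreted Frizzled-related proteins do. In the metanephric kidney, Wnt9b from the ureteric bud and Wnt4 from the induced mesenchyme drive the formation of renal vesicles, the first epithelial structures of the nephron. Kremen1 is a membrane receptor for Dickkopf proteins and is itself not secreted.

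The study asked how the loss of Fgfrl1, a receptor of the Fgf receptor family without a kinase domain, affects mRNA levels in the kidney at E12.5, when the first differences between the genotypes appear. All mice were C57BL/6, and the groups were Fgfrl1-/- embryos, with both copies of the gene inactivated, and wildtype littermates. RNA of 6 to 9 pooled kidney rudiments made up a sample, and 3 Fgfrl1-/- pools were each hybridized together with 1 wildtype pool to an Agilent array. Whether the pools of different arrays came from different litters is not given in the sources used here, so the p-values measure the spread between these 3 arrays. Fgfrl1-/- cRNA carried Cy3 and wildtype cRNA Cy5 on all 3 arrays. Since the dyes were swapped on 0 arrays, an effect of the dye and an effect of the genotype cannot be told apart on the arrays. The authors also reported Dkk1 and Frzb as lower by quantitative PCR at E12.5, and by in situ hybridization at a later stage. The arrays hold whole rudiments, in which fewer cells of a type and less RNA per cell cannot be told apart.

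Arrays 2 and 3 shared a slide, whereas array 1 was on a slide of its own. The image of array 1 was also processed with an earlier version of the scanner software. Slide, software version and pools therefore cannot be told apart where array 1 differs from the others. Between 57.2% and 80.2% of the probes were well above background per channel, with median raw signals of 60 to 113 over local backgrounds of 18 to 56. Over all probes, and with the caveat that probes are no replicates, Pearson's r between the ratios of 2 arrays was 0.71 on the shared slide (arrays 2 and 3). It was 0.11 between arrays 1 and 2, and 0.22 between arrays 1 and 3. The single probe for Fgfrl1 had log2 ratios of -1.21, -1.51 and -1.83 (adjusted p = 0.0332). Whether it lies in the inactivated part of the gene is not given in the sources used here. All 8 marker genes of the cap mesenchyme and 7 of the 8 of the ureteric bud had signal well above background on each array in both channels. The exception was Ret, which reached that level on 1 array only, in Fgfrl1-/-.

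All values below are log2 ratios of Fgfrl1-/- over wildtype, or normalized log2 signals of a channel where so named, after background correction and normalization of each array. Signals were not evened between arrays, so whether channels overlap across arrays also depends on the brightness of each array. How many of all probes lacked such overlap was not counted. A probe was called at an adjusted p below 0.05, from limma's moderated two-sided test over all 41174 probes. Of these probes 164 were lower, which is 0.398%, and 119 were higher, which is 0.289%, in the Fgfrl1-/- kidneys. When each array was centred on its median instead, 91 probes were lower and 2 were higher. The 11 antagonist probes had signal well above background on each array in both channels, and each is represented by 1 spot.

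The direction of the findings rests on 4 probes, the 2 for Dkk1 and those for Dkk2 and Frzb. Each probe is 60 bases long, and the first 30 bases are shown, as the array file lists them, to identify which stretch of each transcript was measured. The letters are in lower case throughout because no position within a probe stands out.
Dkk1, brighter probe A_51_P379069: tactgtgttgtaaatcctcagtgtggcact
Dkk1, dimmer probe A_52_P508391: atgcagaaggaagcctgccaacttaagcca
Dkk2, probe A_51_P241068: tcagagtgatgatgtcatcagaagtttata
Frzb, probe A_51_P286748: gtgcaccagggtgttatttaacagaggtat
On mouse build mm8, the files place the brighter Dkk1 probe at chr19:30612931-30612990 and the dimmer one at chr19:30612036-30612095, both on the minus strand, with 895 bases between their starts. The Dkk2 probe lies at chr3:132116699-132116758 on the plus strand and the Frzb probe at chr2:80213264-80213323 on the minus strand. No annotation of mm8 was used here, so the exon or UTR that a probe covers was not assigned.

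Dkk1 was the most reduced of the 8 genes. It is the founding Dickkopf protein, which binds Lrp5 and Lrp6 and blocks canonical Wnt signaling. At the brighter probe, arrays 1, 2 and 3 read raw Fgfrl1-/- signals of 217.5, 121 and 195.5, against local backgrounds of 20, 29 and 27. The raw wildtype signals were 1067, 1521 and 1257.5, against backgrounds of 55, 47 and 51.5. Every Fgfrl1-/- value was below every wildtype value, and the same held after normalization, with log2 signals of 7.84, 7.73 and 8.04 in Fgfrl1-/- and 10.20, 10.07 and 10.09 in wildtype. The log2 ratios were -2.36, -2.35 and -2.05, and their mean was -2.25 ± 0.18 (SD, n = 3 arrays), a 4.76-fold lower level in the Fgfrl1-/- kidneys (SE 0.092, adjusted p = 0.00653). Only 4 of the 41174 probes had a more negative mean.

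The dimmer Dkk1 probe gave the same direction with a smaller difference. Its normalized log2 signal was 6.90, 7.15 and 7.15 in Fgfrl1-/- and 8.28, 8.79 and 8.67 in wildtype, again without overlap. The log2 ratios were -1.38, -1.65 and -1.52, with a mean of -1.52 ± 0.13 (SD, n = 3 arrays), or 2.86-fold lower (SE 0.081, adjusted p = 0.0201). On each array, its ratio was nearer to 0 than that of the brighter probe. With the mean of both probes, Dkk1 had -1.88 (adjusted p = 0.00601).

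**Figure D1:**
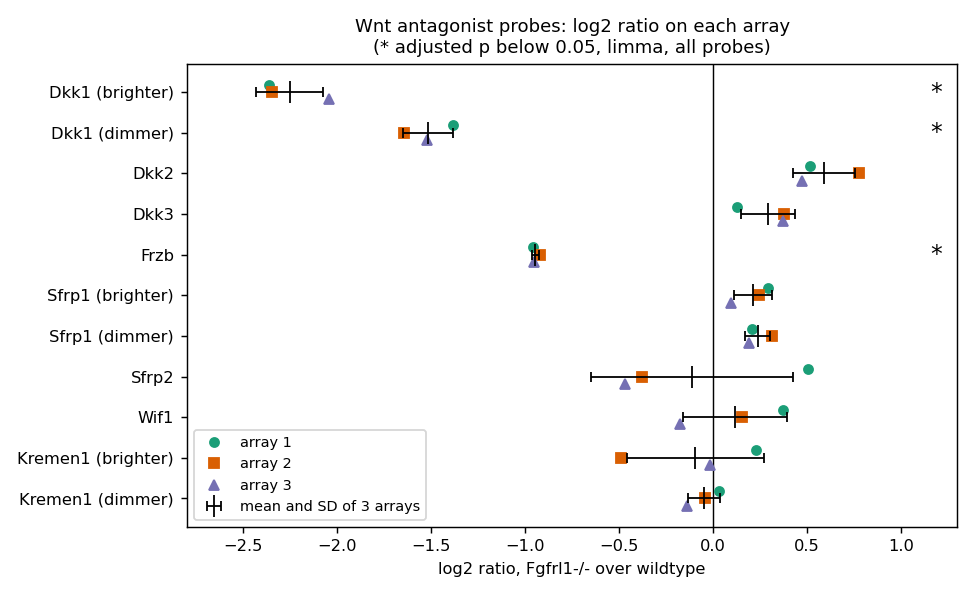
Log2 ratio of Fgfrl1-/- over wildtype (x axis) for the 11 probes of the 8 antagonist genes (y axis), 1 symbol per array, with the mean and SD of 3 arrays, and an asterisk where the adjusted p of limma was below 0.05. Both Dkk1 probes and Frzb lie left of 0 on every array, Dkk2, Dkk3 and both Sfrp1 probes lie right of 0 on every array, and Sfrp2, Wif1 and Kremen1 straddle it.

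Dkk2 and Dkk3 did not share this direction. Dkk2, a Dickkopf protein that can inhibit or enhance Wnt signaling depending on the context, had normalized log2 signals of 10.53, 10.42 and 10.30 in Fgfrl1-/- and 10.01, 9.64 and 9.82 in wildtype. All 3 Fgfrl1-/- values were above all 3 wildtype values. Its log2 ratios were 0.52, 0.78 and 0.47, with a mean of 0.59 ± 0.16 (SD, n = 3 arrays), a 1.5-fold higher level that did not pass the test (SE 0.088, adjusted p = 0.0661). Fitted with the slide as a fixed block, the value was 0.57 (adjusted p = 0.00014), and on the slide of arrays 2 and 3 alone it was 0.63 (adjusted p = 0.000349). Over all probes, the first of these fits called 4649 lower and 5632 higher and the second 4172 lower and 3494 higher, each with 1 residual degree of freedom. On the slide of array 1 the value was 0.52, without a test. With median centring it was 0.34 (adjusted p = 0.689).

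Dkk3 is the most divergent Dickkopf protein, and its role in Wnt signaling is less settled. It is measured by a probe at chr7:111908495-111908554 on the minus strand. Its normalized log2 signals were 8.14, 8.03 and 8.31 in Fgfrl1-/- and 8.02, 7.65 and 7.94 in wildtype, so the lowest Fgfrl1-/- value, 8.03, stood just above the highest wildtype value, 8.02. The log2 ratios were 0.12, 0.38 and 0.37, with a mean of 0.29 ± 0.14 (SD, n = 3 arrays), a 1.22-fold difference that did not pass (adjusted p = 0.184). It passed with the slide as a fixed block (0.25, adjusted p = 0.0114) and on the slide of arrays 2 and 3 alone (0.37, adjusted p = 0.00365).

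The Dickkopf genes were also compared with each other within each array, at the brighter probe of Dkk1. The ratio of Dkk1 was below that of Dkk2 by -2.88, -3.12 and -2.52 log2 units on arrays 1, 2 and 3, a mean difference of -2.84 ± 0.30 (SD, n = 3 arrays). It was below that of Dkk3 by -2.49, -2.72 and -2.42, with a mean of -2.54 ± 0.16 (SD). Dkk2 exceeded Dkk3 by 0.39, 0.40 and 0.10, with a mean of 0.30 ± 0.17 (SD). Over 6 such pairs, an exact two-sided sign-flip permutation test gave p = 0.25 for each of these 3, which is the smallest p that 3 arrays allow (adjusted p = 0.3). The test therefore cannot reach significance in this design, and the differences are described by their size against the spread. The differences of Dkk1 from Dkk2 and Dkk3 were many times their SD.

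Frzb was the antagonist with the most even decrease. Frzb is a secreted Frizzled-related protein that binds Wnt ligands through a domain like that of the receptors. Its normalized log2 signals were 8.15, 8.23 and 8.44 in Fgfrl1-/- and 9.10, 9.15 and 9.39 in wildtype, so that the channels did not overlap. The log2 ratios of -0.96, -0.92 and -0.95 gave a mean of -0.94 ± 0.019 (SD, n = 3 arrays), or 1.92-fold lower (SE 0.067, adjusted p = 0.0274). Its SD was the lowest of the 11 probes, for which the median SD was 0.14, against 0.13 over all probes.

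Neither Sfrp1 nor Sfrp2, the other members of this family examined here, was called. Sfrp1 has a brighter probe at chr8:24913185-24913244 and a dimmer probe at chr8:24913873-24913932, both on the plus strand, with 688 bases between their starts. The brighter probe had normalized log2 signals of 11.86, 11.08 and 11.29 in Fgfrl1-/- and 11.56, 10.84 and 11.20 in wildtype. These ranges overlapped, although the Fgfrl1-/- value was the higher one on each array. Its log2 ratios were 0.29, 0.24 and 0.097, with a mean of 0.21 ± 0.10 (SD, n = 3, adjusted p = 0.267), but median centring gave the opposite sign, -0.11. The dimmer probe had 0.21, 0.32 and 0.19, with a mean of 0.24 ± 0.068 (SD, n = 3, adjusted p = 0.196). With the slide as a fixed block, the brighter and the dimmer probe passed with 0.23 each (adjusted p = 0.0209 and 0.0202), and on arrays 2 and 3 alone the dimmer probe passed with 0.25 (adjusted p = 0.0334).

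Sfrp2, at chr3:83859869-83859928 on the plus strand, took opposite directions on the slides. Its normalized log2 signals were 13.35, 12.57 and 12.58 in Fgfrl1-/- and 12.84, 12.95 and 13.05 in wildtype. The Fgfrl1-/- value was the higher one on array 1 and the lower one on arrays 2 and 3. The log2 ratios were 0.51, -0.38 and -0.47, and the mean of -0.11 ± 0.54 (SD, n = 3, adjusted p = 0.857) was smaller than the spread between arrays. Without array 1 it was -0.42 (adjusted p = 0.00188). Without array 2 or array 3 it was 0.020 and 0.065, and with the slide as a fixed block it was 0.042, none of which passed.

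Within the family, the ratio of Frzb was below that of Sfrp1 by -1.25, -1.17 and -1.05 on arrays 1, 2 and 3, with a mean of -1.16 ± 0.10 (SD, n = 3 arrays). It was below that of Sfrp2 by -1.47, -0.55 and -0.48, with a mean of -0.83 ± 0.55 (SD). In the exact sign-flip permutation test both pairs had p = 0.25, again the smallest possible (adjusted p = 0.3). Sfrp1 minus Sfrp2 changed sign between the slides. It was -0.22, 0.62 and 0.56, on average 0.32 ± 0.47 (SD, n = 3, exact permutation p = 0.5, adjusted p = 0.5). The sign of the mean difference was kept by all 6 pairs under every alternative that was run for them.

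Wif1 and Kremen1 differed by less than the spread between arrays. Wif1, a secreted protein that binds Wnt ligands directly, has a probe at chr10:120503083-120503142 on the plus strand. Its normalized log2 signals were 7.52, 7.09 and 6.92 in Fgfrl1-/- and 7.14, 6.93 and 7.10 in wildtype, with overlap. Its log2 ratios of 0.37, 0.15 and -0.18 gave a mean of 0.12 ± 0.28 (SD, n = 3, adjusted p = 0.722), which was -0.011 without array 1.

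Kremen1 has a brighter probe at chr11:5160024-5160083 and a dimmer probe at chr11:5094671-5094730, on the minus strand, with 65353 bases between their starts. The brighter probe had log2 ratios of 0.23, -0.49 and -0.019, with a mean of -0.094 ± 0.36 (SD, n = 3, adjusted p = 0.829), which was 0.10 without array 2. The dimmer probe had 0.033, -0.043 and -0.14, with a mean of -0.049 ± 0.086 (SD, n = 3, adjusted p = 0.825). Neither probe had the same sign on all 3 arrays.

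**Figure D2:**
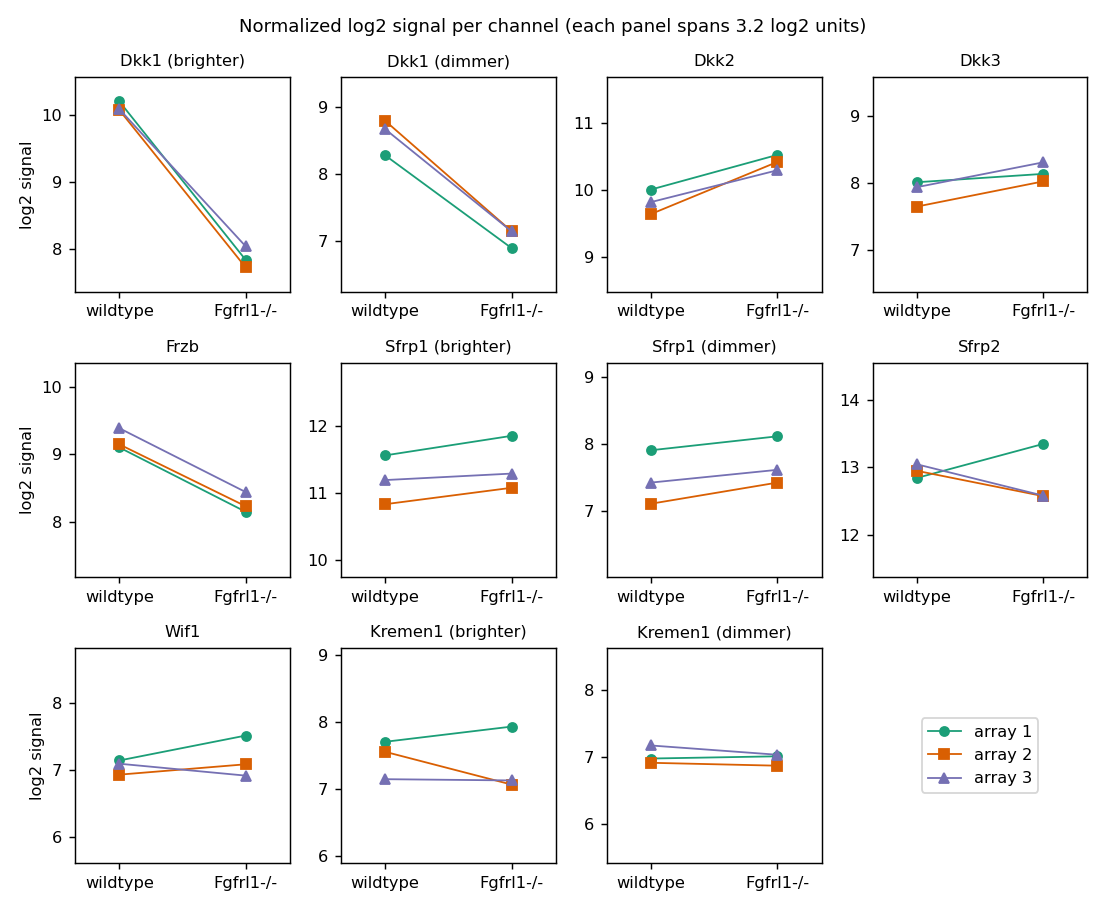
Normalized log2 signal (y axis) of the wildtype and Fgfrl1-/- channels (x axis) for each of the 11 probes, with 1 line per array. Each panel spans the same number of log2 units with its own origin, so slopes can be compared between panels but levels cannot. The lines of Dkk1 and Frzb fall on all 3 arrays, those of Dkk2 climb, and for Sfrp2 the line of array 1 climbs while those of arrays 2 and 3 fall.

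Counted together, 3 of the 11 antagonist probes were lower by limma's test and 0 were higher. At an unadjusted p below 0.05, 3 were lower and 4 were higher, the latter being Dkk2, Dkk3 and both Sfrp1 probes. Over all 41174 probes, 3376 were lower and 3165 higher at that unadjusted threshold. The log2 ratio was below 0 on all 3 arrays for 3 of the 11 probes, beside 19.3% of all probes, and above 0 on all 3 arrays for 4 of the 11, beside 19.1%. The median log2 fold change of the 11 probes was -0.049, and that of all probes was 0.0037, with 5% of all probes below -0.29 and 5% above 0.30. With 1 probe per gene, the median of the 8 antagonists was 0.011. Both Dkk1 probes and Frzb lay below that central range, and Dkk2 lay above it.

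**Figure D3:**
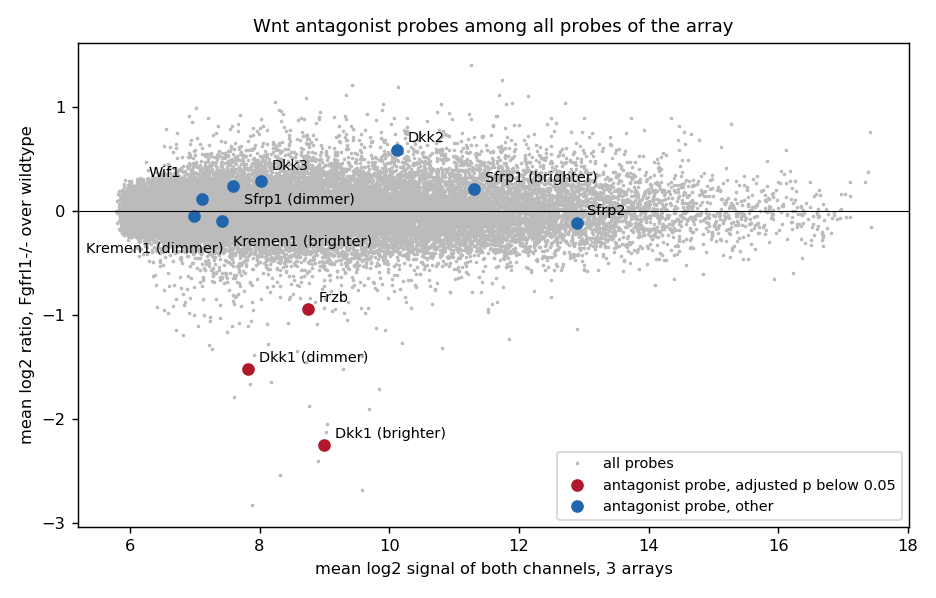
Mean log2 ratio of Fgfrl1-/- over wildtype (y axis) against the mean log2 signal of both channels (x axis), over 3 arrays. The 41158 probes with a ratio on all 3 arrays are in grey. The 11 antagonist probes are in colour, red where the adjusted p of limma was below 0.05. Among the antagonist probes, those of Dkk1 and Frzb lie below -0.29, a value that 5% of all probes fall under, and Dkk2 alone lies above 0.30, which 5% exceed.

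The calls of Dkk1 and Frzb depended on arrays 2 and 3 and on the background correction or source of the ratios, while their direction did not. Without array 2 the brighter Dkk1 probe had -2.20 (adjusted p = 0.0984), the dimmer one -1.45 (adjusted p = 0.201) and Frzb -0.96 (adjusted p = 0.29). Without array 3 the values were -2.36 (adjusted p = 0.1), -1.51 (adjusted p = 0.427) and -0.94 (adjusted p = 0.471). Without array 1 all of these probes passed. In the fits without array 2 or array 3, limma called 0 of the 41174 probes, with 3712 and 3141 at an unadjusted p below 0.05. The same was true with a normexp offset of 0 and with the ratios of the scanner software, which called 0 probes, with 4852 and 6118 at an unadjusted p below 0.05. There the brighter Dkk1 probe had -2.58 and -2.61, the dimmer one -2.04 and -2.24, and Frzb -1.09 and -1.20. In the table of log2 ratios that the authors deposited, Frzb had -1.05 (adjusted p = 0.0502). Dkk1, at its brighter probe or, in 1 alternative, as the mean of its probes, passed in 12 of 16 alternatives. The value of the brighter probe itself lay between -2.61 and -2.20. Frzb passed in 11 of 16 with values between -1.20 and -0.94. Both counts include quantile normalization of the average signal, which leaves ratios as they are. They also include keeping outlier spots, of which these probes had 0.

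**Figure D4:**
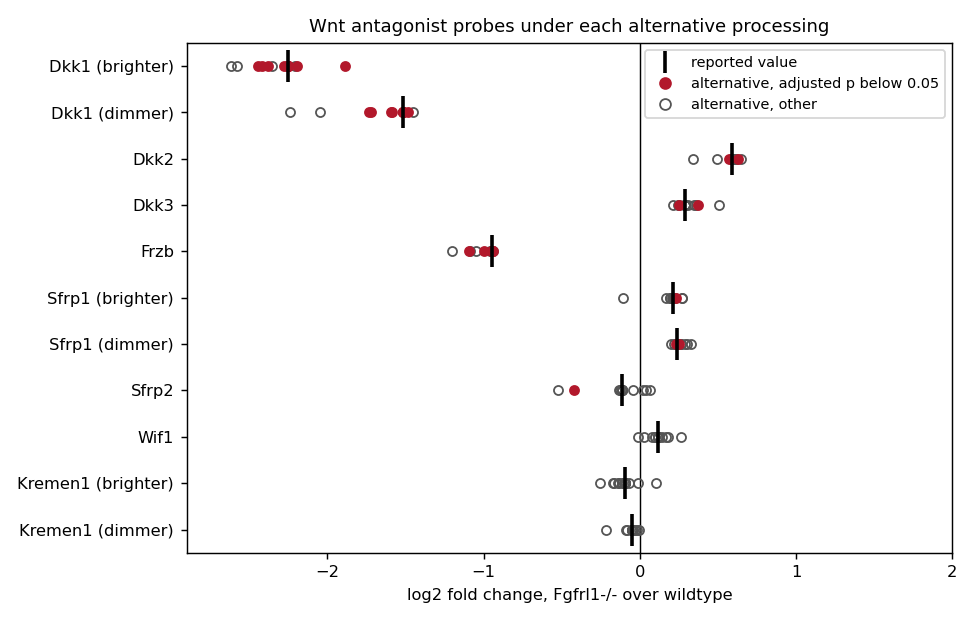
Log2 fold change of Fgfrl1-/- over wildtype (x axis) of each antagonist probe (y axis) as reported (black bar) and under each alternative processing (circles, filled where the adjusted p of limma was below 0.05). For genes with a pair of probes, the circles of the brighter probe include the mean of both, such as -1.88 for Dkk1. Every circle of Dkk1 and Frzb lies left of 0 and every circle of Dkk2 and Dkk3 lies right of 0, whereas those of Sfrp2 lie on both sides.

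The stretch of genome before a gene is where transcription factors of the Wnt pathway can act. For Dkk1 and Frzb, the 2 members that fell, the 250 bases before the transcription start are shown from RefSeq on build GRCm38.p6, 5′ to 3′ on the strand of the gene. Capitals mark matches to the core of the Tcf and Lef binding motif, searched on both strands as the string CTTTGAA, the string CTTTGAT, the string CTTTGTA or the string CTTTGTT.
Dkk1 promoter: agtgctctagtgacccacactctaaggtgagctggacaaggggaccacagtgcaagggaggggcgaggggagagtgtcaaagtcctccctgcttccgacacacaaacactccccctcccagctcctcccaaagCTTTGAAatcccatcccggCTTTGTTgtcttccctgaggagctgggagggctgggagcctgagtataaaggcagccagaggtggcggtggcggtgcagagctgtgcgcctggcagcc
Frzb promoter: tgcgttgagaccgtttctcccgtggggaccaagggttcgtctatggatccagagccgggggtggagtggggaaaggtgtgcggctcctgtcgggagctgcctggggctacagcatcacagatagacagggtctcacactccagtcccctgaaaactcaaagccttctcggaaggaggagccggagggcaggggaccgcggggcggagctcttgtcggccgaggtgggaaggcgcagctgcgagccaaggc
The Dkk1 stretch lies at chr19:30549497-30549746 and the Frzb stretch at chr2:80447397-80447646 on that build, both on the minus strand. The Dkk1 stretch held 2 matches, which begin 117 and 98 bases before the start, and the Frzb stretch held 0. Those of Dkk2, Sfrp2 and Wif1 also held 0 matches. Of 32851 RefSeq promoters cut to the same length, 14.8% held 1 or more matches and 1.43% held 2 or more. A match is a run of letters and not a measured binding site. Dkk3, Sfrp1 and Kremen1 had no entry in the table used.

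Other genes of the Wnt pathway were read from lists, with each gene at its probe of highest mean signal. For all 27745 gene names on the array read in this way, 134 were lower (0.483%), 95 were higher (0.342%) and the median log2 fold change was 0.0071. With limma fitted to 1 probe per gene name alone, 4578 of the 27745 names had an unadjusted p below 0.05, both directions together. The unadjusted counts of the lists are to be read beside that number. Of the Wnt list genes named below, the authors had already listed Notum, Fzd10, Wnt4, Lef1 and Sp5 as lowered on these same arrays. Among 17 other antagonists and negative regulators, limma called 1 lower and 0 higher, with 4 lower and 3 higher at an unadjusted p below 0.05 and a median of -0.035. The gene that fell was Notum, a secreted enzyme that inactivates Wnt ligands by removing their lipid. It was lower on 3 of 3 arrays, with a mean log2 ratio of -0.92 ± 0.074 (SD, n = 3, adjusted p = 0.0322). Its probe was well above background on 3 arrays in wildtype and on 1 in Fgfrl1-/-. Dkk4 and Cer1 had no signal well above background on any array.

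Of 22 Wnt receptors, co-receptors and agonists, the last being R-spondins with their Lgr receptors, limma called 0 in either direction, with 4 lower and 4 higher at an unadjusted p below 0.05 and a median of -0.023. Among them the Frizzled receptor Fzd10, named after its value was seen, had log2 ratios of -0.84, -1.80 and -1.71 (mean -1.45, SD 0.53, adjusted p = 0.0552). Of 19 Wnt ligands, 2 were lower and 0 higher, with 3 lower and 4 higher at an unadjusted p below 0.05 and a median of 0.024. These were Wnt4, with a mean of -2.40 ± 0.34 (SD, n = 3, adjusted p = 0.0201), and Wnt11, a ligand of the ureteric tips, with -0.76 ± 0.13 (SD, adjusted p = 0.0408). Wnt2b, Wnt8a and Wnt10b had no signal well above background on any array.

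Of 9 genes widely used as readouts of canonical signaling, 3 were lower and 0 higher, with 6 lower and 0 higher at an unadjusted p below 0.05, and the median was -0.40. The 3 genes encode transcription factors, Lef1 with a mean of -1.13 ± 0.29 (SD, n = 3, adjusted p = 0.0416), Tcf7 with -0.69 ± 0.029 (SD, adjusted p = 0.0379) and Sp5 with -1.66 ± 0.57 (SD, adjusted p = 0.0488). Axin2, a feedback inhibitor and a common readout named after its value was seen, had -0.14 (adjusted p = 0.455). As for the antagonists, none of these list genes passed without array 2 or without array 3.

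**Figure D5:**
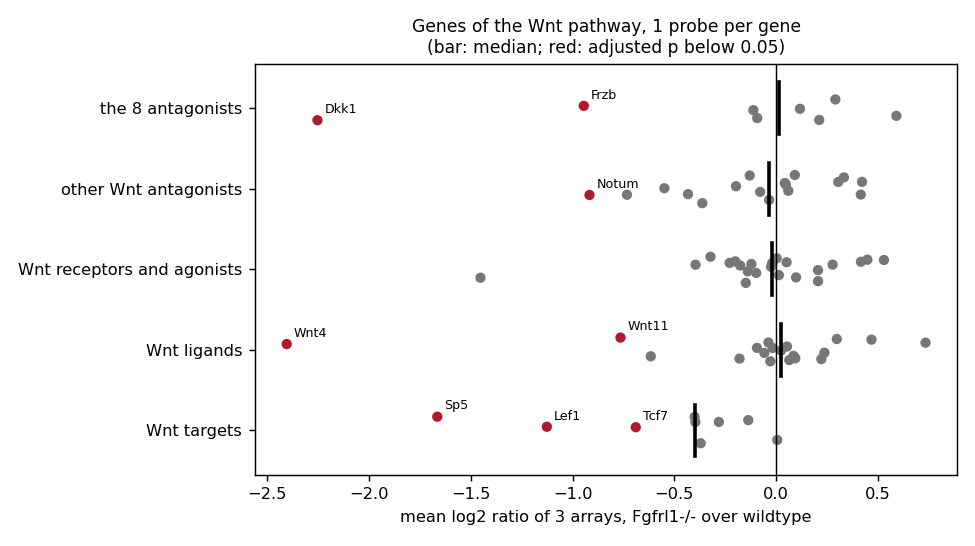
Mean log2 ratio over 3 arrays of Fgfrl1-/- over wildtype (x axis) for the genes of 5 groups of the Wnt pathway (y axis), 1 dot per gene, with the median of each group as a bar and genes with an adjusted p below 0.05 in red and named. The medians lie near 0 except for that of the targets at -0.40, and all named genes lie left of 0.

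Likeness to Dkk1, at its brighter probe only, was measured by Euclidean distance over the 3 log2 ratios. It was taken among 18533 gene names whose channels were each well above background on at least 1 array. The nearest genes were Slc32a1 at a distance of 0.67, Fgf8 at 0.75 and Wnt4 at 0.77. The brighter Dkk1 probe ranked 5 from the lowest of all probes, so only few genes could lie near it. Slc32a1, a vesicular transporter of inhibitory amino acids, had a mean of -2.54, and Fgf8, a growth factor of the forming nephron, had -2.05. There were 0 genes within a distance of 0.25 of Dkk1 and 17 within that distance of Frzb. Nearest to Frzb were Apom at 0.077, Ankrd56 at 0.10 and Notum at 0.10, under its older name 5730593N15Rik. Apom, an apolipoprotein, had a mean of -0.96 and Ankrd56 one of -0.91. The authors had listed each of these nearest genes, to Dkk1 and to Frzb, as lowered on these same arrays. The measure rests on 3 values per gene, and for Notum the Fgfrl1-/- signal was well above background on 1 of these arrays only.

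Markers of cell types differed between the channels alongside Dkk1 and Frzb. Of 8 renal vesicle markers, 5 were lower and 0 higher, Wnt4, Fgf8, Lhx1, Dll1 and Bmp2. At an unadjusted p below 0.05, 8 were lower and 0 higher, and the list had a median of -1.18. The summed normalized signal of the list was 5677 to 6374 in Fgfrl1-/- and 10566 to 12569 in wildtype. Ccnd1 aside, the authors had reported each gene of this list as lowered on these same arrays. The direction of the list was thus largely known in advance. Of 7 stromal markers, 0 were lower and 2 higher, Pdgfra with 1.02 and Col1a1 with 0.84, and the median was 0.46. By quantitative PCR on kidneys of the same stage, the authors found no difference in Col1a1 between the genotypes. At an unadjusted p below 0.05, 1 stromal marker was lower and 5 were higher. Tcf21 had -0.77, -0.32 and -0.34 on the 3 arrays (mean -0.48, adjusted p = 0.127), and Tbx18 had a mean of -0.15 (adjusted p = 0.659). Their summed signal was 74078 to 107315 in Fgfrl1-/- and 40727 to 68771 in wildtype. Of 4 macrophage markers limma called 0, with 4 higher at an unadjusted p below 0.05, a median of 0.49 and summed signals of 1319 to 1868 in Fgfrl1-/- and 997 to 1136 in wildtype. Each of these 3 lists had summed signals without overlap between the channels, and all of their genes had signal well above background on each array in both channels. The Wnt ligands also had sums without overlap, 4835 to 5775 in Fgfrl1-/- and 5800 to 7318 in wildtype. A sum of signals weighs bright genes most, and the median log2 fold change of the ligands was 0.024. Wnt4 is part of this sum and of that of the renal vesicle list. In every other Wnt or cell type list read here, the sums of the channels overlapped. Signals were normalized within each array only, so differences in brightness between arrays remain in all of these sums. The part of the marker differences in the values of the antagonists was not tested.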

How the data were processed

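The scanner files that the authors deposited hold, per spot and channel, intensities of signal and local background, flags and a log10 ratio of wildtype over Fgfrl1-/-. Their headers name Agilent Feature Extraction, 9.5.3.1 on array 1 but 10.5.1.1 on the other arrays. The authors also deposited a log2 table made with R and Bioconductor, whose background correction, normalization and test are not given in the sources used here. Set against the ratios normalized here from the scanner intensities, its columns were log2 ratios of Fgfrl1-/- over wildtype (r from 0.997 to 0.998 over bright probes). Their slopes on these ratios were 1.11, 0.985 and 0.994 on arrays 1, 2 and 3, and their medians were -0.018, 0 and 0.003.

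Median intensities were corrected with normexp (offset 50) and normalized by loess in limma 3.58.1 under R 4.3.3. Outlier spots were left out and spots of a probe averaged. The log2 ratios were fitted with an intercept by lmFit and eBayes, with Benjamini-Hochberg adjustment over all 41174 probes. The fit and the adjustment were tested on simulated ratios, whereas the background correction, normalization and averaging of spots were not. The SE comes from this fit and the SD from the 3 ratios. The members and gene lists were chosen with earlier results of these data known. Named were all members, Fgfrl1, Wnt list genes that passed or were not above background, markers with their list, and the 3 nearest genes to Dkk1 and Frzb. The number of arrays limits the precision. The alternatives changed the background correction, normalization, dim and outlier probes, probes per gene, variance model, pairing, slide block and arrays.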

Additional observations from a re-analysis of the deposited data

How the results depend on the processing

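Of 17 alternatives, quantile normalization of the average signal leaves ratios as they are by construction. The slide as a random block was not run to a result, since no correlation could be estimated, and no probe was added when members were looked up by accession. For the antagonist probes, 0 instead of 3 were lower with a normexp offset of 0 and with the scanner ratios, 4 instead of 0 were higher with the slide as a fixed block, and leaving out 1 array gave 0 to 4 lower and 0 to 3 higher. Under the offset of 0, the scanner ratios, median centring and the slide block, 0, 0, 0 and 4 other antagonists were lower, and with the separate-channel fit 2, against 1 as reported. Of receptors and agonists, 1 was lower with median centring, the mean of probes, the trended robust variance and the separate-channel fit, and 5 with the slide block, against 0. Of the ligands, 0, 0, 1, 1 and 4 were lower with the offset of 0, the scanner ratios, median centring, the authors' table and the slide block, against 2. Of the targets, 0, 0, 1, 1 and 6 were lower with the offset of 0, the scanner ratios, the mean of probes, the authors' table and the slide block, against 3. Leaving out 1 array gave 0 to 6 other antagonists, 0 to 7 receptors and agonists, 0 to 3 ligands and 0 to 7 targets. Without array 1, or with the slide block, the spread comes from arrays 2 and 3 alone.

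Signs turned for the brighter Sfrp1 probe (-0.11 with median centring), Sfrp2 (0.042 with the slide block, -0.42 to 0.065 with 1 array left out, positive without array 2 or 3), Wif1 (-0.011 to 0.26 with 1 array left out, negative without array 1) and the brighter Kremen1 probe (-0.25 to 0.10 with 1 array left out, positive without array 2). The cause was not tested. Over all probes, against 164 lower and 119 higher, the counts were 91 and 2 with median centring, 32 and 4 with the authors' table, 236 and 222 with the separate-channel fit, 117 and 72 without background subtraction, 115 and 65 with dim probes left out, 4649 and 5632 with the slide block, 4172 and 3494 without array 1, and 0 and 0 with the offset of 0, the scanner ratios, and without array 2 or 3. Each array pairs 1 pool of each genotype, so that the reported fit of ratios is paired by array. Both Dkk1 probes and Frzb also passed in the separate-channel fit, which models the pairing through an intraspot correlation of 0.45.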

Other observations

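Markers of other cell types of the rudiment were read in the same way, with log2 ratios of Fgfrl1-/- over wildtype. Of 8 cap mesenchyme markers, limma called 1 lower, Cited1 with -0.78 (adjusted p = 0.0442), and the median was -0.093. Six2, the marker of nephron progenitors, had -0.046 ± 0.24 (SD, n = 3, adjusted p = 0.897). Of 8 ureteric bud markers, Wnt11 was called lower, and the median was 0.35, with 1 lower and 5 higher at an unadjusted p below 0.05. Wnt9b, the inducing ligand of the bud, had 0.73 ± 0.25 (SD, n = 3, adjusted p = 0.0661). No gene was called by limma among 5 endothelial, 5 erythroid, 5 skeletal muscle and cartilage, 4 neural and 5 gonadal, mesonephric or adrenal markers, of which 1 erythroid marker was lower and 1 of the last list higher at an unadjusted p below 0.05. Their medians lay between -0.083 and 0.048. Cyp11a1, of the last list, had no signal well above background on any array.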
